A study of Mus musculus with 14 samples.

Results

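The annexins are calcium-dependent phospholipid binding proteins. Each carries a conserved core that docks on the inner face of cell membranes when calcium rises, and a variable N-terminal tail that sets its partners. They are known for membrane repair, endosome and vesicle traffic, plasminogen activation at the cell surface and the restraint of inflammation, and several are abundant in ductal epithelium. The members described here are Anxa1, Anxa2, Anxa3, Anxa4, Anxa5, Anxa6, Anxa7, Anxa8, Anxa9 and Anxa11, 10 genes, found as the probe sets whose platform annotation names exactly 1 of these symbols. That rule gave 17 of the 22690 probe sets on the array, for 9 of the 10 genes: 3 each for Anxa2, Anxa6 and Anxa7, 2 each for Anxa4 and Anxa8, and 1 each for Anxa1, Anxa3, Anxa5 and Anxa9. The only probe set of Anxa11 names 3 genes, so no value of it is given. The family was chosen by a measured value, the early fall of Anxa8 on these arrays, so the values of Anxa8 are a description with no test.

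The RNA came from whole number 4 inguinal mammary glands of untreated female CD1 mice, an outbred strain, with the lymph nodes dissected out. Age is the only difference between the groups that the labels give. There were 3 arrays each (A, B and C) at 3, 4, 6 and 7 weeks and 2 (A and B) at 5 weeks, 14 in all, a span that covers puberty. Each array was hybridised with RNA pooled from at least 3 mice, and p-values measure the spread between such pools. Every value below is a linear ratio: the signal of a probe set divided by its own median over the 14 arrays, so that 1 is its middle array. The level of one gene can therefore not be set against that of another. In a whole gland, fewer cells of a type and less RNA per cell cannot be told apart.

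Quality values of the arrays moved with age and touch several results. Actin control probe sets at both ends of the transcript gave a 5'/3' log2 ratio that was lowest at 6wk, at -0.46, -0.79 and -0.08 on arrays A, B and C, and ran from -0.26 to 0.28 at the other ages. The same ratio for pyruvate carboxylase set all 3 arrays of 6wk apart, at -2.78, -2.51 and -1.81, against -1.25 to 0.90 at the other ages. Both ends had been divided by their own medians over the arrays. These 5'/3' values therefore compare arrays with each other and give no absolute 5'/3' ratio of signal. The mean log2 ratio of the hybridisation spikes, which are added after labelling, was lowest at 7wk, between -1.86 and -0.79, against -0.58 to 1.10 elsewhere. The number of arrays limits the precision.

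Anxa8, known from late endosomes and from stratified epithelia such as skin and first described as an anticoagulant protein, fell over the first weeks and then stayed low. Probe set 1417732_at read 4.76, 8.28 and 6.74 at 3wk, 1.78, 2.42 and 2.48 at 4wk, and 0.623 and 0.867 at 5wk. At 6wk it read 1.13, 0.834 and 0.656, and at 7wk 0.702, 0.710 and 0.657. All 3wk arrays lay above all 4wk arrays, and all 4wk arrays above every later one, whereas the arrays of 5, 6 and 7 weeks overlapped. Of all tested probe sets, 15.2% did not overlap between 3wk and 4wk and 33.5% between 4wk and 5wk.

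The second probe set of Anxa8, 1425789_s_at, gave the same course. Its ratios were 4.61, 7.69 and 4.87 at 3wk, 1.42, 3.39 and 2.34 at 4wk, and 0.710 and 0.626 at 5wk. They were 1.04, 0.957 and 0.605 at 6wk and 0.701, 0.473 and 0.540 at 7wk. The same order held, with no overlap between 3wk, 4wk and the later ages. The log2 ratios of both probe sets correlated at r = 0.98 over the 14 arrays, which share their libraries.

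**Figure D1:**
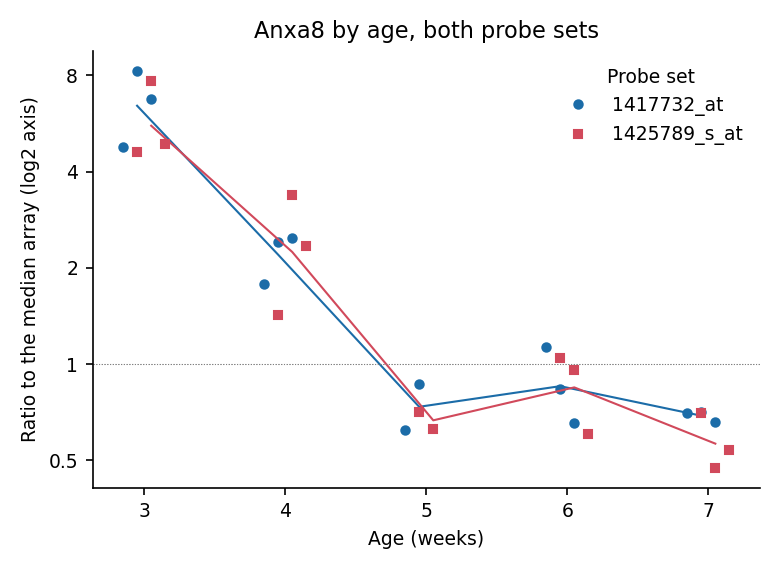
Anxa8 on each of the 14 arrays, as the ratio of each probe set to its median array on a log2 axis, against age in weeks; circles and squares are the probe sets 1417732_at and 1425789_s_at, and lines join the geometric means of each age. The 3wk arrays lie between 4.61 and 8.28, the 4wk arrays between 1.42 and 3.39, and all later arrays between 0.473 and 1.13.

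The fall was spread over both of the first steps. From 3wk to 4wk the log2 change of 1417732_at was -1.55 (SE 0.25), a level 2.92-fold lower, and that of 1425789_s_at was -1.31 (SE 0.33), 2.48-fold lower. From 4wk to 5wk the changes were -1.58 (SE 0.28) and -1.75 (SE 0.36), 2.99-fold and 3.36-fold lower. Whether the steps differed was not tested. From 5wk to 6wk the changes were 0.21 (SE 0.28) and 0.34 (SE 0.36), and from 6wk to 7wk -0.31 (SE 0.25) and -0.58 (SE 0.33). Over the alternatives the change from 6wk to 7wk ran from -0.50 to 0.11 for 1417732_at and from -1.12 to -0.10 for 1425789_s_at. From 3wk to 7wk Anxa8 changed by -3.22 (SE 0.25) and -3.30 (SE 0.33). Leaving out each array in turn gave -3.44 to -3.04 for the first probe set and -3.46 to -3.07 for the second. The level before division could be recovered only for dim probe sets, and Anxa8 was not among them, with no match for a median of up to 402 and 387 signal steps, the whole units in which the signal was counted before division.

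Upstream sequence was taken from RefSeq, build GRCm38.p6, as 250 bases before to 50 bases after each annotated start. It was listed for 8 of the 10 genes, in 11 entries, and not for Anxa3 or Anxa6. The sequences of Anxa8 and Anxa4 are shown because these genes moved in opposite directions, Anxa8 down and Anxa4 up. They are printed 5′ to 3′ on the strand of the gene, with capitals marking any match to the 4 motifs searched on both strands (none of them contained in another): the TATA box TATAAA, the CCAAT box, the Sp1-type site GGGCGG and the nuclear receptor half-site AGGTCA.
Anxa8, chr14:34085729-34086028, plus strand: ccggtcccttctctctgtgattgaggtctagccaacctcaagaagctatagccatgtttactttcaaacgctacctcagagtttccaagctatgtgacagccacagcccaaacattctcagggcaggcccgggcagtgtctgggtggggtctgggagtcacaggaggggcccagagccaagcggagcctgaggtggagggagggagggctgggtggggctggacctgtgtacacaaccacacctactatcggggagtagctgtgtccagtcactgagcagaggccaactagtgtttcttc
Anxa4, first start, chr6:86793535-86793834, minus strand: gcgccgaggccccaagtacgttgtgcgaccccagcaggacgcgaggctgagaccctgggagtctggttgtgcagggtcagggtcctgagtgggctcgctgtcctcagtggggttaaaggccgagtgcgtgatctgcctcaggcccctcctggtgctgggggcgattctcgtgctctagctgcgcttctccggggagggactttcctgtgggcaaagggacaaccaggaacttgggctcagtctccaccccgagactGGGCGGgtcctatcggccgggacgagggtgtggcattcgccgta
Anxa4, second start, chr6:86775065-86775364, minus strand: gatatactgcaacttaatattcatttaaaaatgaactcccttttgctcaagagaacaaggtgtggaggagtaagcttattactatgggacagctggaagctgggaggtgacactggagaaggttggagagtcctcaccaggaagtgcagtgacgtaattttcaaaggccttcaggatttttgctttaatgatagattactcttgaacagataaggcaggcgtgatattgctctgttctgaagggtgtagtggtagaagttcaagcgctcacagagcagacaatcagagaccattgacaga
The window of Anxa8 held no match to any of the 4 motifs. Of the 32851 promoters of that length, 13.6% hold TATAAA, 37.4% CCAAT, 35.7% GGGCGG and 16.3% AGGTCA. The first Anxa4 window held 1 match to GGGCGG, and the second held none. Their GC content was 65.3% and 43.0%, against 57.3% for Anxa8 and a median of 52.7% over all promoters. Among the other members TATAAA stood in the windows of Anxa1 and Anxa2, with 1 match each, GGGCGG in those of Anxa2, Anxa7 and Anxa11, and AGGTCA in 1 of the windows of Anxa9. These matches describe letters and not binding, and no measurement of binding was analysed here.

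Of the 8 other genes with a probe set of their own, 14 probe sets passed the filter on low levels. The filter asked for at least 200 signal steps on at least 2 arrays, and 1437691_at of Anxa2, at 3 to 130 steps, did not reach it. Over the 5 ages, limma's F test with Benjamini-Hochberg adjustment across all 18479 tested probe sets called 2 of the 14, Anxa3 and 1 of the probe sets of Anxa4, where 10.3% of all tested probe sets were called. At 7wk against 3wk 2 of the 14 were higher, where 5.95% of all were, and at 6wk against 3wk 4 of the 14, where 9.15% were. Anxa9, 1 of these 4, reached the 200 steps only on arrays of 4, 6 and 7 weeks. Its place in that count therefore rests in part on the age at which it was called higher. At 5wk against 3wk 1 was higher, where 2.39% were. With all arrays in, none of the 14 was called lower in any of the 7 comparisons. No member was called between neighbouring ages, where 0.152% of all probe sets were called in either direction from 3wk to 4wk, 0.752% from 4wk to 5wk, 0.281% from 5wk to 6wk and 0.958% from 6wk to 7wk. At an unadjusted p under 0.05, limma counts 3, 2, 3 and 5 of the 14 in these steps, of which 0, 0, 1 and 4 were lower at the later age. The same threshold takes 10.3%, 14.9%, 10.5% and 14.0% of all probe sets, with 2.86%, 8.39%, 4.48% and 6.34% lower. The median log2 change of the 14 was 0.15 at 7wk against 3wk, beside 0.08 over all probe sets, and 0.25 at 6wk against 3wk, beside 0.07.

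**Figure D2:**
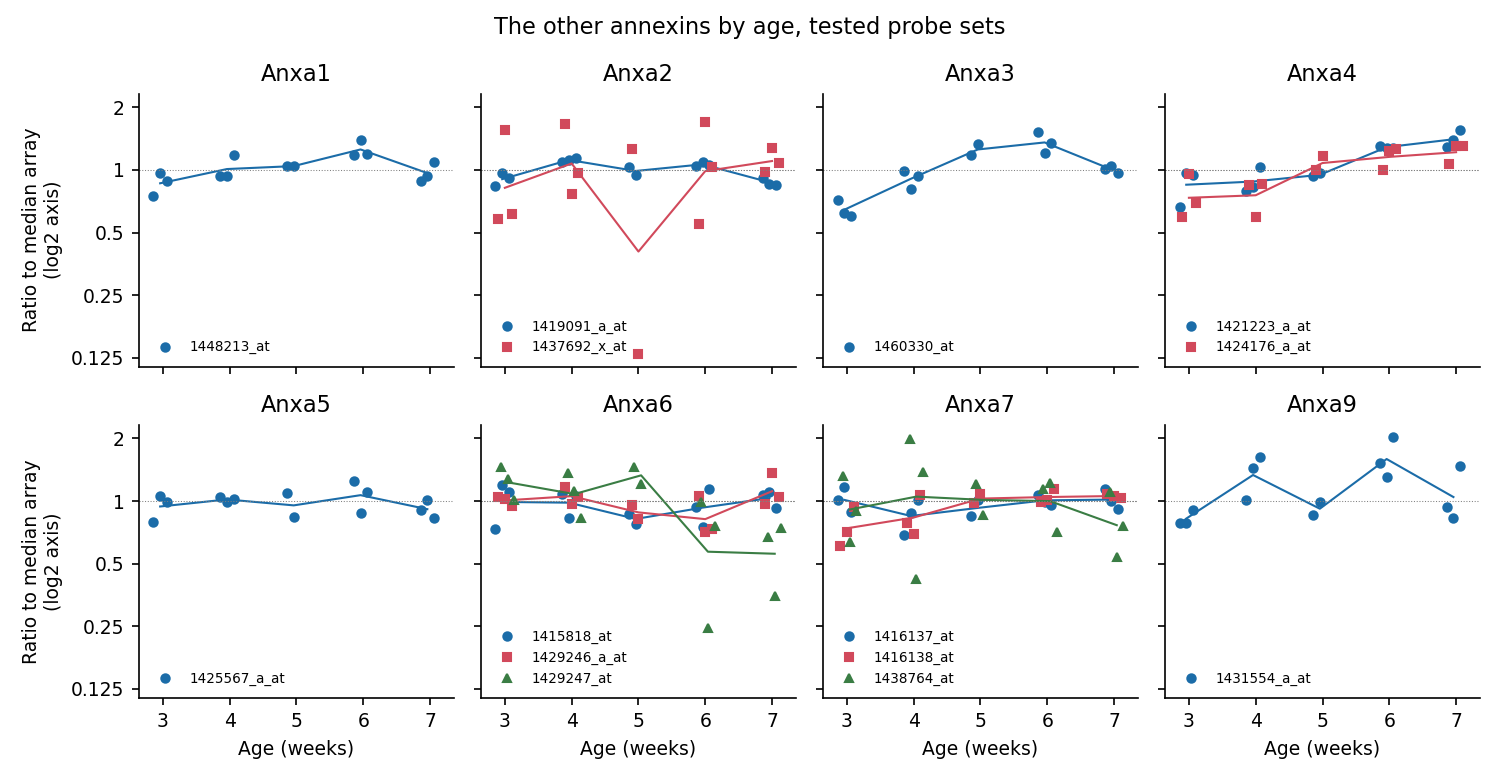
The 14 tested probe sets of the other 8 annexins on each array, as ratios to the median array on a log2 axis, against age in weeks; symbols mark probe sets and lines join the geometric means of each age. Anxa3 climbs from 0.597 to 0.718 at 3wk to 1.21 to 1.53 at 6wk, and Anxa5 stays between 0.797 and 1.25. The probe sets 1437692_x_at of Anxa2, 1429247_at of Anxa6 and 1438764_at of Anxa7 scatter most within ages.

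Anxa3, an annexin of epithelia and neutrophil granules, rose from 3wk to a high at 5wk and 6wk. Its only probe set, 1460330_at, read 0.718, 0.620 and 0.597 at 3wk and 0.989, 0.811 and 0.930 at 4wk. It read 1.18 and 1.34 at 5wk, 1.53, 1.21 and 1.35 at 6wk, and 1.01, 1.04 and 0.965 at 7wk. All 3wk arrays lay below every later array. The 4wk arrays overlapped those of 7wk, and the 5wk arrays overlapped those of 6wk, so the order of the means was 3wk, 4wk, 7wk, 5wk and 6wk with 4wk and 7wk, and 5wk and 6wk, not separated.

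Against 3wk, Anxa3 rose by a log2 change of 0.96 (SE 0.15) at 5wk (limma adjusted p = 0.00593), 1.08 (SE 0.13) at 6wk (adjusted p = 0.00068) and 0.64 (SE 0.13) at 7wk (adjusted p = 0.0133). The F test gave an adjusted p of 0.00351. From 6wk to 7wk it changed by -0.43 (SE 0.13, limma adjusted p = 0.181), with every 7wk array below every 6wk array. The arrays of these ages did not overlap for 20.8% of all probe sets. The 6wk call and the F test were kept under all 23 alternatives that keep probe sets apart, with adjusted p of 0.000658 to 0.0185 and 0.00272 to 0.0229. The 5wk call was lost without array B of 5wk (adjusted p = 0.0665). The 7wk call was lost with quantile normalization (adjusted p = 0.0556) and with the spikes as a covariate (adjusted p = 0.142).

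Anxa4, a protein beneath the apical membrane of secretory epithelia, was higher at 6wk and 7wk. Probe set 1421223_a_at read 0.664, 0.971 and 0.948 at 3wk, 0.794, 0.831 and 1.03 at 4wk, and 0.931 and 0.963 at 5wk. It read 1.30, 1.28 and 1.28 at 6wk and 1.29, 1.39 and 1.55 at 7wk. The arrays of 3, 4 and 5 weeks overlapped and lay below all arrays of 6 and 7 weeks, which overlapped each other. Of all tested probe sets, 32.6% did not overlap between 3wk and 6wk, 28.4% between 3wk and 7wk and 28.9% between 5wk and 6wk.

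This probe set of Anxa4 rose by a log2 change of 0.60 (SE 0.16) at 6wk (limma adjusted p = 0.0326) and 0.73 (SE 0.16) at 7wk (adjusted p = 0.0191), with an F test at 0.0308. The second probe set, 1424176_a_at, changed by as much, 0.65 (SE 0.21) and 0.73 (SE 0.21), with adjusted p of 0.0567, 0.0507 and, for the F test, 0.0704. It read 0.595, 0.955 and 0.697 at 3wk against 1.07, 1.30 and 1.30 at 7wk, without overlap, as for 28.4% of all probe sets between these ages. The log2 ratios of both probe sets correlated at r = 0.83 over the 14 arrays. The 6wk call of 1421223_a_at was lost with the actin ratio as a covariate (adjusted p = 0.417), without arrays A and B of 6wk (0.232), without array A of 3wk (0.0901) and without any 1 array of 6wk (0.0736 to 0.0825). The 7wk call was lost with the spikes as a covariate (0.079), without array B of 7wk (0.0553) and without array C (0.0726). The F test lost its call under 13 of the 23 alternatives, with adjusted p reaching 0.112. Among them were the leaving out of array A or B of 4wk and of any array of 5, 6 or 7 weeks. The second probe set, 1424176_a_at, gained calls at 6wk and 7wk with the spikes as a covariate (limma adjusted p = 0.0174 and 0.0359). It also gained them without array B of 3wk (0.0263 and 0.0256) and without array B of 4wk (0.044 and 0.0391). Its F test passed with the spikes (0.0429) and without array B of 3wk (0.0409).

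Anxa1, a glucocorticoid-regulated protein that restrains phospholipase A2 and signals through formyl peptide receptors, was highest at 6wk. Its probe set read 0.751, 0.961 and 0.888 at 3wk, 0.939, 0.932 and 1.18 at 4wk, and 1.05 and 1.04 at 5wk. It read 1.19, 1.40 and 1.19 at 6wk and 0.881, 0.939 and 1.09 at 7wk. The 6wk arrays lay above all others, while those of the other ages overlapped except that 5wk lay above 3wk. Of all tested probe sets, 32.6% did not overlap between 3wk and 6wk, 28.9% between 5wk and 6wk and 20.8% between 6wk and 7wk. Between 3wk and 5wk this share was 34.4%. The log2 change at 6wk against 3wk was 0.54 (SE 0.15, limma adjusted p = 0.0328), and the F test did not pass (adjusted p = 0.16). The 6wk call was lost with quantile normalization (0.0725), with the actin ratio as a covariate (0.526), without arrays A and B of 6wk (0.272), without array A (0.102) or C (0.0667) of 3wk and without any 1 array of 6wk (0.0588 to 0.103).

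Anxa9, an annexin whose core calcium binding sites are degenerate, was also called at 6wk alone. It read 0.785, 0.786 and 0.906 at 3wk, 1.01, 1.44 and 1.64 at 4wk, 0.853 and 0.990 at 5wk, 1.53, 1.31 and 2.03 at 6wk, and 0.938, 0.825 and 1.48 at 7wk. Array C of 6wk was highest, and the 3wk arrays overlapped those of 5wk and 7wk. The log2 change at 6wk against 3wk was 0.95 (SE 0.25, limma adjusted p = 0.0282), with an F test at 0.101. Anxa9 was dim, at a median of 174.5 signal steps, and no array of 3wk or 5wk reached the 200 that the filter asked for, so its place among the tested probe sets rests on arrays of the other ages. The call was lost with quantile normalization (0.0527), with the actin ratio as a covariate (0.17), without arrays A and B of 6wk (0.0762), without any 1 array of 3wk (0.0523 to 0.0742) and without array A (0.0642) or C (0.094) of 6wk.

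**Figure D3:**
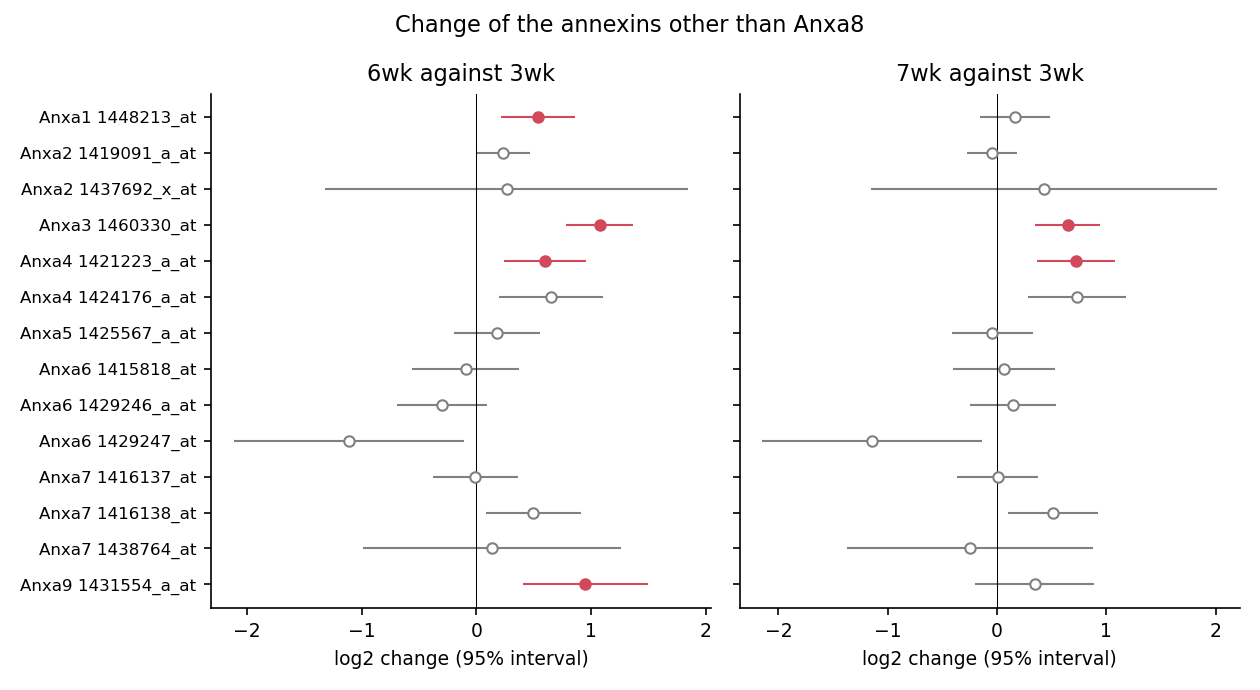
The log2 change of each of the 14 probe sets of the annexins other than Anxa8 at 6wk and at 7wk against 3wk, with 95% intervals of the limma fit; filled red points passed the adjusted threshold of 0.05 and open grey points did not. Anxa3 and 1421223_a_at of Anxa4 pass at both ages, Anxa1 and Anxa9 at 6wk, and no point below 0 passes. Anxa9 passed the filter on low levels only through arrays of 4, 6 and 7 weeks.

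Anxa2, Anxa5, Anxa6 and Anxa7 had no call in any comparison with all arrays in. Anxa2, which forms a complex with S100a10 that gathers plasminogen and its activator at the cell surface, read 0.833 to 0.969 at 3wk, 1.09 to 1.14 at 4wk, 1.04 to 1.09 at 6wk and 0.846 to 0.912 at 7wk with probe set 1419091_a_at. Its log2 change was 0.24 at 6wk against 3wk (95% interval 0.01 to 0.47, limma adjusted p = 0.162) and -0.05 at 7wk (-0.28 to 0.18). The other tested probe set of Anxa2, 1437692_x_at, ranged from 0.130 to 1.70 without order by age, and the interval of its 7wk change, -1.16 to 2.01, holds changes of either sign. Anxa5, which binds phosphatidylserine on dying cells, changed by 0.18 at 6wk (95% interval -0.19 to 0.55) and -0.04 at 7wk (-0.41 to 0.33).

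The probe sets of Anxa6 disagreed. Anxa6 is the largest annexin, with a duplicated core, and acts in endosome and cholesterol traffic. At 7wk against 3wk 1415818_at changed by 0.06 (95% interval -0.40 to 0.53) and 1429246_a_at by 0.15 (-0.24 to 0.54), while 1429247_at changed by -1.14 (-2.15 to -0.14, limma adjusted p = 0.16). That last probe set read 1.46, 1.27 and 1.01 at 3wk and 0.671, 0.349 and 0.743 at 7wk, without overlap, as for 28.4% of all probe sets, and array B of 6wk, at 0.246, was its lowest. It was dim, at 63 to 343 signal steps, and correlated with the other probe sets of Anxa6 at r = -0.01 and 0.16 over the 14 arrays. Without array B of 6wk its 7wk change was called lower (limma adjusted p = 0.0417).

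Those of Anxa7, the annexin known as synexin for its part in the fusion of secretory granules, also differed. 1416138_at read 0.606, 0.710 and 0.941 at 3wk and 1.08, 1.05 and 1.04 at 7wk, a log2 change of 0.52 (95% interval 0.10 to 0.93, limma adjusted p = 0.123). Without array C of 3wk its 6wk change was called higher (limma adjusted p = 0.0468). 1416137_at changed by 0.00 (-0.37 to 0.38). The dim 1438764_at, at 125 to 529 signal steps, changed by -0.25 (-1.37 to 0.87). One gene value for Anxa6 or Anxa7 would hide this spread, so none is given.

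Among members, Anxa3 had the most negative correlation with Anxa8 over the 14 arrays, which share age and library. Its r was -0.85 with 1417732_at and -0.82 with 1425789_s_at. Not far from these were 1424176_a_at of Anxa4 (-0.75 and -0.80), 1416138_at of Anxa7 (-0.71 and -0.76) and 1421223_a_at of Anxa4 (-0.64 and -0.67). In contrast, 1416137_at and 1438764_at of Anxa7 had 0.06 and -0.02 with 1417732_at, and 1429247_at of Anxa6 had 0.45. From 6wk to 7wk Anxa3 and Anxa8 both changed downwards, by -0.43 for Anxa3 and -0.31 and -0.58 for Anxa8. The probe sets most like 1417732_at of Anxa8 over the 14 arrays were those of Ppa1 (r = 0.97), a pyrophosphatase, Eci1, Fabp3 and Acaa2 (each 0.96), of fatty acid oxidation and transport, and Wfdc21 (0.96). For 1425789_s_at they were Ppa1 (0.99), Fabp3 (0.98), Acaa2 and Rad50 (0.97) and Acadl (0.96), an acyl-CoA dehydrogenase. In all, 56 and 59 probe sets had an r over 0.9 with them. Fabp3 went from 12.5, 13.4 and 8.93 at 3wk to 1.04, 0.539 and 0.514 at 7wk, and Ppa1 from 1.74, 2.18 and 1.84 to 0.749, 0.657 and 0.700. The probe sets most like Anxa3 were those of Wnt5a, Rmnd5a and Scarb2 (each r = 0.95) and of Slco2a1 and Sdc1 (each 0.94), among 36 over 0.9. Wnt5a, a signalling ligand, read 0.661, 0.601 and 0.599 at 3wk and 1.40, 1.43 and 1.47 at 6wk. Sdc1, a cell-surface proteoglycan, read 0.405, 0.514 and 0.542 at 3wk and 2.34, 1.48 and 1.87 at 6wk.

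Marker lists moved over the same weeks, and their part in the annexin values was not tested. Gene values are means over the probe sets of a gene, 10671 genes were tested, and of these 7.13% were called higher and 2.99% lower at 7wk against 3wk, and 9.82% higher and 4.30% lower at 6wk. Of 9 brown adipocyte markers, Fabp3 among them, 7 were lower and none higher at 7wk. Their mean log2 ratio ran from 1.27 to 1.74 at 3wk, 0.97 to 1.52 at 4wk, -0.40 to 0.07 at 5wk, -0.83 to -0.46 at 6wk and -0.82 to -0.14 at 7wk. Of 11 luminal epithelial markers, 10 were higher at 7wk and 10 at 6wk, with a list mean from -2.23 to -1.41 at 3wk, 0.25 to 0.83 at 6wk and 0.16 to 0.47 at 7wk. Of 9 basal markers 4 were higher at 7wk and 5 at 6wk. Their mean ran from -1.10 to -0.79 at 3wk, 0.16 to 0.76 at 6wk and -0.02 to 0.25 at 7wk. Of 7 neutrophil markers 1 was higher at 7wk and 2 at 6wk. The mean of that list was -0.92 to -0.29 at 3wk, -0.20 to 0.82 at 6wk and -0.20 to 0.04 at 7wk. Of 6 skin keratinocyte markers 1 was lower at 7wk and none at 6wk, with a mean of -0.21 to 0.48 at 3wk and -0.35 to -0.03 at 7wk. Of 7 adipocyte markers 2 were lower at 7wk and 3 at 6wk, with none higher. Of 4 Schwann cell markers 3 were lower and 1 higher at 7wk, and 2 were lower at 6wk. Lists for fibroblasts, endothelium, macrophages, lymphocytes, skeletal muscle and mesothelium were also scored and are not described.

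**Figure D4:**
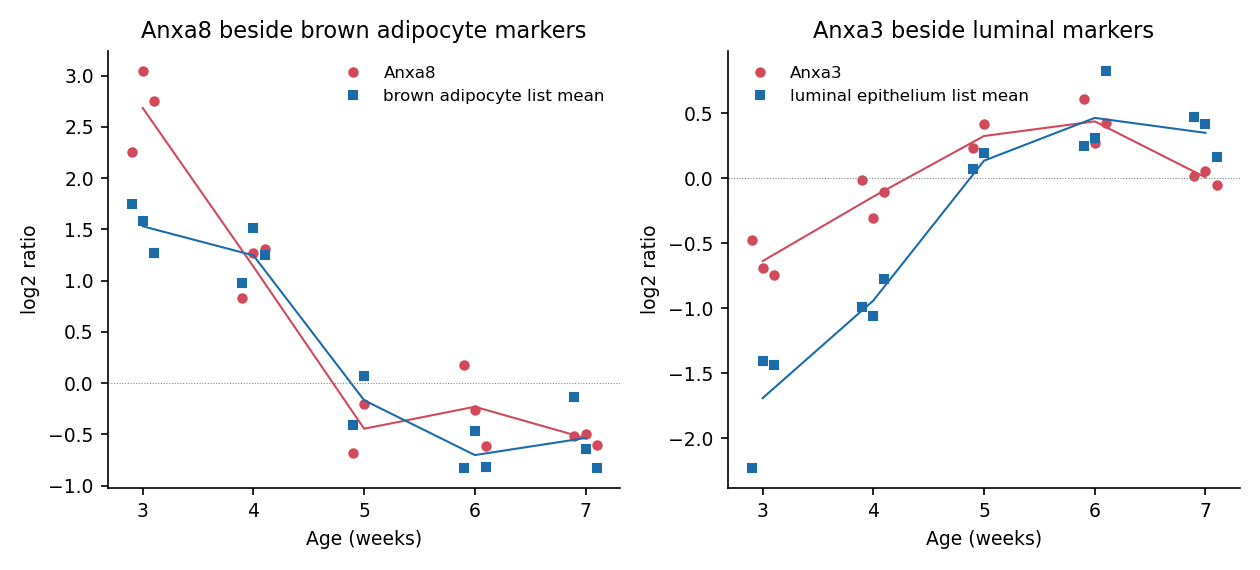
Left, the log2 ratio of Anxa8 (1417732_at, circles) beside the mean log2 ratio of 9 brown adipocyte markers (squares) on each array by age in weeks; right, Anxa3 beside the mean of 11 luminal markers. Lines join the means of each age. From 3wk to 4wk Anxa8 falls by 1.55 while the brown adipocyte mean moves from 1.53 to 1.25. Both are low from 5wk on. From 6wk to 7wk Anxa3 changes by -0.43 while the luminal mean moves from 0.47 to 0.35. Over that week the basal and neutrophil means, not drawn, move from 0.44 to 0.10 and from 0.36 to -0.08.

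The other genes of annexin biology were counted by list, on gene values, where the F test called 10.9% of all genes. Against 3wk, 9.82% of all genes were called higher and 4.30% lower at 6wk, and 7.13% higher and 2.99% lower at 7wk. Results of the alternatives were not taken for these genes. Of 12 tested S100 proteins, small calcium sensors several of which bind annexin tails, the F test called 3, with 3 higher at 6wk and 1 lower at 7wk, against 3wk. S100a14 changed by 1.43 (SE 0.29, limma adjusted p = 0.00803) at 6wk and by -0.18 (SE 0.29) at 7wk, and S100a6 by 1.08 (SE 0.19, adjusted p = 0.004) at 6wk. The third at 6wk was S100a8, a neutrophil protein that is also on the neutrophil marker list, at 1.13 (SE 0.28, limma adjusted p = 0.0217). It read 1.261, 2.606 and 1.215 on arrays A, B and C of 6wk, and 0.671, 0.847 and 0.675 at 3wk. The 1 lower at 7wk was S100a13, at -0.56 (SE 0.12, limma adjusted p = 0.0143). S100a4 was called by the F test and by neither of these comparisons. S100a10, the partner of Anxa2, changed by 0.31 (SE 0.18) at 6wk (limma adjusted p = 0.265). The median log2 change of the list was 0.21 at 6wk and -0.12 at 7wk, beside 0.07 and 0.09 over all genes.

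Of 6 tested genes for an Anxa1 receptor, phospholipases A2, a lipoxygenase and a cyclooxygenase, 1 rose. This was the cytosolic phospholipase Pla2g4a, by 0.87 (SE 0.19) at 6wk (limma adjusted p = 0.0119) and 0.81 (SE 0.19) at 7wk (adjusted p = 0.0209). The receptor gene Fpr2 changed by -0.21 (SE 0.27) at 6wk (adjusted p = 0.656). Of 6 genes of plasminogen activation, 1 rose, the tissue activator Plat, by 1.23 (SE 0.14) at 6wk (adjusted p = 0.000351) and 1.24 (SE 0.14) at 7wk (adjusted p = 0.000312). The F test called 1 gene of each of these lists. Their medians were -0.10 and -0.04 at 6wk and 0.02 and -0.06 at 7wk, beside 0.07 and 0.09 over all genes.

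Of 19 genes of membrane repair and of the ESCRT machinery, which seals wounded membranes together with annexins, 3 rose and 1 fell at 7wk, and 1 rose and 1 fell at 6wk. Cav1, the caveolae scaffold that is also abundant in adipocytes, fell by 0.70 on the log2 scale (SE 0.13, limma adjusted p = 0.00577) at 7wk. Myof, a ferlin, rose by 0.88 (SE 0.17, adjusted p = 0.00868) and Pdcd6ip, the ESCRT adaptor Alix, by 0.44 (SE 0.11, adjusted p = 0.0246). The third was Chmp4b, an ESCRT filament subunit, by 0.43 (SE 0.12, adjusted p = 0.0486), which was also the gene that rose at 6wk. The F test called 3 of the 19 genes. The list's median was 0.15 at 7wk, beside 0.09 over all genes.

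Of 20 other phospholipid binding proteins, 6 rose and none fell at 6wk, and 3 rose and 1 fell at 7wk. Mfge8, a milk fat globule protein that binds phosphatidylserine, rose by 1.82 (SE 0.16, limma adjusted p = 7.22e-05) at 7wk. Gas6, a ligand that bridges phosphatidylserine to receptor kinases, rose by 1.45 (SE 0.34, adjusted p = 0.0198), and the kinase Prkcb by 1.13 (SE 0.21, adjusted p = 0.00601). The copine Cpne1 fell by 0.47 (SE 0.13, adjusted p = 0.0432). The F test called 5 of the 20 genes. The median of the list was 0.29 at 6wk and 0.33 at 7wk, beside 0.07 and 0.09 over all genes.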

How the data were processed

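Affymetrix mouse arrays were hybridised with biotin-labelled RNA of pooled glands, per the labels' protocols. The deposited values are linear ratios, and for the software behind the signals the sources used here name nothing. By tests on the table, the authors had scaled every probe set to its median array: 22344 of the 22690 probe sets have a median of 1 within 0.001. For 337 dim probe sets a minimum divisor was used, and their ratios are whole multiples of a step that differs by up to 1.70 times between arrays. Relative to array C of 4wk, the step was smaller by 1.70 and 1.57 times on arrays A and C of 7wk. It was smaller by 1.60 times on array C of 6wk, and by at most 1.22 times elsewhere. A given ratio thus counts as more steps on those late arrays. From these steps the level of dim probe sets before division was recovered. The 64 control probe sets and 4147 whose second-highest level was under 200 steps were left out. Detection calls were not used here.

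Log2 ratios, with no offset, were fitted with limma 3.58.1 (R 4.3.3) on all 14 arrays, with age as a factor, empirical Bayes moderation, 7 comparisons between ages and an F test over all 5. P-values are two-sided and Benjamini-Hochberg adjusted over all 18479 probe sets (10671 genes for the lists, as means of probe sets that name 1 gene), with a threshold of 0.05. The model was tested on simulated data. Gene names came from the platform annotation, where 20380 probe sets name 1 gene, 691 several and 1555 none. The design assumed signal values, and the offset and intensity filter it named did not suit ratios. All probe sets of the members are named, up to 4 genes of each list by the F test's adjusted p among those called, with S100a10 and Fpr2 added for their known link to a member and S100a8, S100a13 and Chmp4b chosen after their values were seen, and the 5 probe sets most like Anxa8 and Anxa3. The members and lists were chosen with earlier results of these data known. Plots were drawn with matplotlib 3.10.9 under Python 3.11.15. Alternatives were no filter on low levels, quantile normalization, median centring, 1 row per gene, a replicate block, spikes or the actin ratio as a covariate, array weights, robust moderation, no arrays A and B of 6wk, and each array left out.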

Additional observations from a re-analysis of the deposited data

How the results depend on the processing

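No direction of a called annexin change reversed. The number of member probe sets called by the F test, 2 of 14 apart from Anxa8, became 1 with the actin ratio as a covariate and 1 without arrays A and B of 6wk, and 1 to 3 with each array left out. At 7wk against 3wk the count of 2 became 1 with quantile normalization and 1 with the spikes as a covariate, and 1 to 3 with each array left out, where 1 added call, of Anxa6 without array B of 6wk, was lower at 7wk. At 6wk against 3wk the count of 4 became 2 with quantile normalization, 1 with the actin ratio as a covariate and 1 without arrays A and B of 6wk, and 1 to 5 with each array left out. At 5wk against 3wk it was 0 or 1. The counts of 0 between neighbouring ages stayed at 0. The change of Anxa8 (1417732_at) from 6wk to 7wk, -0.31, became 0.11 with the actin ratio as a covariate and 0.071 without arrays A and B of 6wk. Its change from 5wk to 6wk, 0.21, became -0.16 without arrays A and B of 6wk and -0.024 without array A of 5wk, and that of 1425789_s_at, 0.34, became -0.14 without arrays A and B of 6wk. The changes of Anxa8 against 3wk kept their sign. With the array letter as a replicate block the counts were 3 for the F test, 4 at 6wk, 2 at 7wk and 1 at 5wk. Arrays of the same letter showed little shared deviation from the means of their ages (mean correlation 0.02 over 26 pairs, range -0.07 to 0.08). For arrays of other letters the mean was -0.008 over 52 pairs. Deviations cancel within an age, so this value largely follows from the first and is no separate check. Means over all probe sets cannot show whether arrays of a letter were handled together.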
